A study of Mus musculus with 6 samples.

Results

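Carbonic anhydrases were measured by RNA-Seq in colon tissue of Gm31629-/- and WT mice with colitis, as 9 genes of the 27546 in the deposited table: Car1, Car2, Car3, Car4, Car8, Car9, Car12, Car13, and Car14. A row belonged to the family group if its Ensembl identifier carried one of these symbols, and no expression value entered that choice. The 3 Gm31629-/- mice carried a constitutive deletion of a region of the long noncoding RNA gene Gm31629 on chromosome 1, and the 3 WT mice were littermates. All 6 were C57BL/6 mice by their labels (C57BL/6J in the methods), aged 8 weeks, and drank 3% DSS (dextran sulfate sodium, which injures the colonic epithelium) for 7 days and were killed on day 8. The series design names distal colon as the tissue. The deletion was present in every cell, and no untreated mice were sequenced, so the comparison asks how the genotypes differ under injury.

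Carbonic anhydrases interconvert carbon dioxide and water with bicarbonate and protons, through a zinc ion in the active site. In the colon they supply surface epithelial cells with the ions that are exchanged for sodium and chloride during electroneutral absorption, and they help to set the pH at the mucosal surface. The isozymes differ in where they work: Car1, Car2, Car3, and Car13 lie in the cytosol, Car4 is tethered to the outer face of the apical membrane, and Car9, Car12, and Car14 span the membrane with the catalytic domain outside. Car8 is a cytosolic relative without catalytic activity that binds the IP3 receptor Itpr1.

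Part of the site that binds zinc can be read in these stretches of gene sequence. The 8 stretches of 30 coding bases below cover the same place in each catalytic isozyme. The capitals mark a pair of the codons at which the enzyme holds the zinc ion, and not the whole site. They are shown because all 8 genes have histidine codons at both marked places, while many of the bases around them differ. The codon after the second marked one is also the same in all 8 genes.
Car1: actcagttcCATtttCACtggggcaactca
Car2: atccagtttCACtttCACtggggctcatct
Car3: cgccaattcCATcttCACtggggctcctct
Car13: cggcagttcCATttgCACtgggggtcagca
Car4: gtacagttgCACctgCACtggtcaaatggg
Car9: ttgcagttgCATctaCACtggggaacttca
Car12: gagcagctgCACttgCACtgggggaaccgc
Car14: gcccagctcCACctgCACtggggtcagaga
Positions count from 1 at the first base of the stretch. Against Car2, the first marked codon of Car1, Car3, Car9, and Car13 carried C12T, and both spellings encode histidine. The second marked codon was CAC in all 8 genes. Over the whole stretch, Car3 differed from Car2 at 7 bases, Car1 at 8, and Car4 at 14.

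In GRCm38 coordinates from GENCODE M21, these stretches lie in coding exons at chr3:14776269-14776298 on the minus strand for Car1, at chr3:14895060-14895089 on the plus strand for Car2, and at chr9:66747638-66747667 on the plus strand for Car12. Of the cytosolic genes, 4 are neighbors on chromosome 3, in the order Car13 (ENSMUSG00000027555, 14641727 to 14663002), Car1 (ENSMUSG00000027556, 14766216 to 14808368), Car3 (ENSMUSG00000027559, 14863512 to 14872523), and Car2 (ENSMUSG00000027562, 14886273 to 14900770). The cluster spans 259 kb and contains no other protein-coding gene. The gap between Car3 and Car2 is 13.7 kb, and Car1 is transcribed against the other genes. The remaining members are scattered, with Car4 at chr11:84957786-84966044, Car8 at chr4:8143362-8239041, Car9 at chr4:43506966-43513729, Car12 at chr9:66713686-66766845, and Car14 at chr3:95897768-95904691.

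Values are FPKM, the fragments of a gene scaled to its length and to the size of the library, so levels of different genes can be set side by side. Depth, recovered from the table, was 17988000 to 18776500 mapped fragments per library. Testing covered the 14657 genes that averaged 0.5 FPKM or more, and 3384 were called, meaning an adjusted p under 0.05 together with a log2 fold change beyond 1 in either direction (limma on log2(FPKM + 1), Benjamini-Hochberg). These were 23.1% of the genes tested. Higher calls made up 18.4% and lower calls 4.64%, and the 2 groups of mice did not overlap for 57.8%. The median log2 fold change of all tested genes was 0.15.

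The libraries stood apart in 2 ways that touch every result. First, the methods state that male mice were used, but the Y-linked genes Ddx3y, Uty, Kdm5d, and Eif2s3y were above 0 only in Gm31629-/- mouse 1, while Xist, which marks female cells, was 8.35 to 13.8 FPKM in the other 5 mice. For the tested carbonic anhydrase genes, calls that change without this mouse are given both ways. For single genes outside the family, calls without this mouse are not given. Second, marker genes of other cell types and of gut position differed between the groups. Summed over 10 smooth muscle markers the level was 1142 to 1745 FPKM in Gm31629-/- and 9.21 to 26.9 FPKM in WT mice, and summed over 15 colon epithelium markers it was 7250 to 8759 and 12096 to 13140 FPKM. Of the 15 epithelium markers 5 were called lower and none higher, beside 4.64% and 18.4% of all tested genes. Epcam (log2 fold change 0.01) and Cdh1 (−0.04) were nearly level. Of 5 genes that mark the distal colon, 4 were in the table, and their sum was 91.1 to 178 FPKM in Gm31629-/- and 13.8 to 31.0 FPKM in WT mice. Hoxd13, which patterns the hindmost gut, was 8.12, 19.2, and 16.4 FPKM in Gm31629-/- mice 1 to 3 and was listed at 0 in all 3 WT mice, although the tissue of both groups was described as distal colon. Which stretch of the colon was taken and genotype cannot be told apart here. In whole tissue, fewer cells of a type and less RNA per cell cannot be told apart either.

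Among the members, 3 of the 8 tested were called lower in Gm31629-/- mice (Car1, Car8, and Car12), beside 4.64% of all tested genes, and none was called higher, beside 18.4%. The groups of mice did not overlap for 4 of the 8, against 57.8% of all tested genes. The median log2 fold change of the 8 was −0.72, beside 0.15 over all tested genes. Car1 stood highest by level and Car12 showed the largest fold difference in the family. Car4, the apical isozyme, was highest of all members in Gm31629-/- mouse 1 but did not pass the test.

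**Figure D1:**
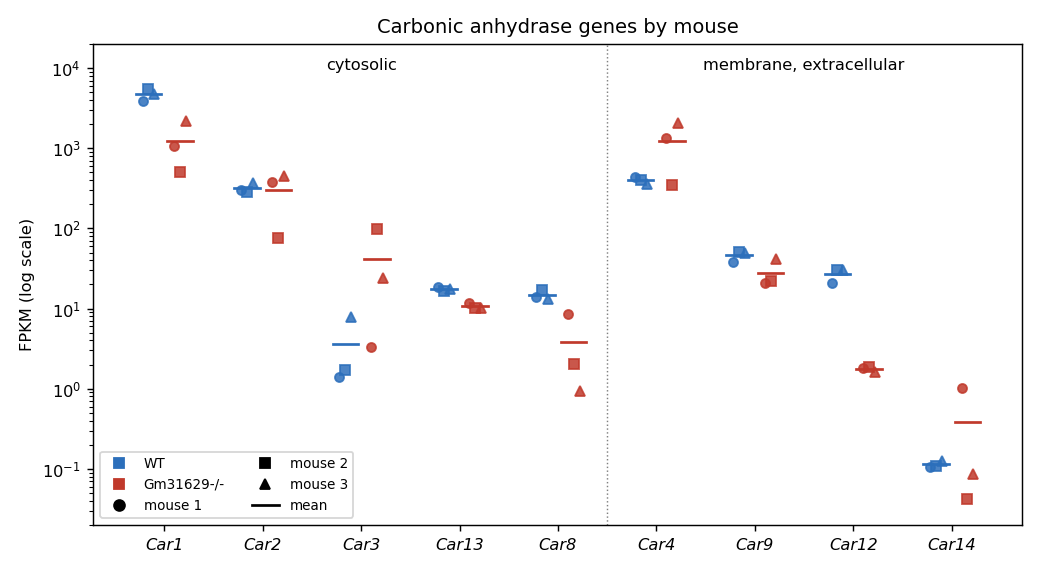
FPKM of the 9 carbonic anhydrase genes on a log axis, 1 point per mouse, with WT in blue, Gm31629-/- in red, and short lines at the group means. Car1 and Car12 are lower in every Gm31629-/- mouse than in any WT mouse, while the red points of Car2, Car3, and Car4 are spread widely.

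Car1, a cytosolic isozyme abundant in colonic epithelium, was 3886, 5459, and 4731 FPKM in WT mice 1 to 3. The Gm31629-/- mice 1 to 3 had 1072, 509, and 2165 FPKM. The groups did not overlap, and the Gm31629-/- mouse with the most Car1 was still below every WT mouse. The means were 1249 ± 842 and 4692 ± 787 FPKM (SD, n = 3 each), 3.76-fold lower in Gm31629-/- mice. On the log2 scale the fold change was −2.13 (95% interval −3.29 to −0.98, limma adjusted p = 0.0126). Car1 remained called lower when any 1 of the 6 mice was left out, with a log2 fold change of −2.65 to −1.61. The limma adjusted p then reached 0.0494 without WT mouse 3, just under the threshold. Its transcripts share 167 stretches of 50 bases with the pseudogene Gm5843, which held at most 27.0 fragments in a library, whereas Car1 held 11715 to 122553.

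Car2, the fast cytosolic isozyme found in many tissues, was 297, 285, and 367 FPKM in WT mice. In Gm31629-/- mice it was 377, 75.6, and 451 FPKM. Mouse 2 lay below all WT mice and the other two above them, so the groups overlapped. The log2 fold change was −0.42 (95% interval −1.89 to 1.05, limma adjusted p = 0.611), and it turned to 0.39 without Gm31629-/- mouse 2. An interval this wide includes a fall of more than 1 on the log2 scale as well as a rise of 1.05.

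Car3, a cytosolic isozyme with low activity that is typical of skeletal muscle and fat, was 1.42, 1.71, and 7.80 FPKM in WT mice. In Gm31629-/- mice it was 3.32, 97.3, and 24.3 FPKM. Gm31629-/- mouse 2 stood far above the other mice, and Gm31629-/- mouse 1 lay below WT mouse 3. The log2 fold change was 2.52 (95% interval −0.02 to 5.05, limma adjusted p = 0.0966). Without Gm31629-/- mouse 1, the library with Y-linked expression, the log2 fold change was 3.69 and Car3 was called higher (limma adjusted p = 0.00926).

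Fat markers differed between the same libraries. Of 8 adipocyte markers, 7 were tested and 6 were called higher in Gm31629-/- mice, beside 18.4% of all tested genes. The 7 had a median of 2.70 on the log2 scale, beside 0.15 over all tested genes. The sum of the 8 was 217, 525, and 149 FPKM in Gm31629-/- mice 1 to 3 and 13.6, 19.8, and 57.7 FPKM in WT mice 1 to 3. The highest sum in each genotype was in the mouse with the most Car3. Below that mouse the Gm31629-/- order differed: the sum was higher in mouse 1 than in mouse 3, while Car3 was lower. Cidec, Fabp4, Cfd, and Plin4 were likewise higher in Gm31629-/- mouse 1 than in mouse 3, and Adipoq, Plin1, Lep, and Retn were lower. Adipoq, the fat-cell hormone adiponectin, was 4.01, 38.3, and 12.8 FPKM in Gm31629-/- mice and 0.431, 0.643, and 3.16 FPKM in WT mice. Within each genotype this was the same order of mice as for Car3. Of 10 skeletal muscle markers, 3 were tested and 1, Ckm, was called higher, and their sum was 107, 40.8, and 9.79 FPKM in Gm31629-/- and 11.5, 14.0, and 8.99 FPKM in WT mice. Most of that sum was Acta1, an actin, at 104, 38.3, and 6.24 FPKM in Gm31629-/- and 10.9, 13.1, and 8.00 FPKM in WT mice (log2 fold change 1.43, limma adjusted p = 0.212). The fast myosin genes Myh1 and Myh2 were listed at 0 in WT mice and reached at most 0.0915 FPKM in Gm31629-/- mice. The part of fat and of muscle in the Car3 values was not tested.

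Car13, a cytosolic isozyme of the gut and other epithelia, was 18.5, 16.6, and 17.5 FPKM in WT mice and 11.8, 10.2, and 10.1 FPKM in Gm31629-/- mice. The groups were tight and did not overlap. The log2 fold change was −0.67 (95% interval −0.99 to −0.35, limma adjusted p = 0.00797), which was past the threshold on p but short of the threshold on fold. The adjusted p stayed under 0.05 when any 1 mouse was left out. Scaled to epithelial markers, the log2 fold change of Car13 was −0.01 (limma adjusted p = 0.962).

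Car8, the catalytically inactive member, was 14.1, 17.0, and 13.3 FPKM in WT mice. In Gm31629-/- mice it was 8.48, 2.04, and 0.947 FPKM, below all WT mice but with a wide spread. The log2 fold change was −2.04 (95% interval −3.28 to −0.80, limma adjusted p = 0.0192). Without Gm31629-/- mouse 1 it was −2.69 (limma adjusted p = 0.000491). The call depended on single mice: it was lost without Gm31629-/- mouse 2 (limma adjusted p = 0.0528) and without WT mouse 1, 2, or 3 (0.0554, 0.0601, and 0.0584). The IP3 receptor genes, whose product Itpr1 Car8 binds, did not move in 1 direction. Itpr1 was 2.24, 2.71, and 2.01 FPKM in Gm31629-/- and 0.578, 0.524, and 0.738 FPKM in WT mice, a called rise of 1.04 on the log2 scale (limma adjusted p = 0.0027). Itpr3 was called lower, with a log2 fold change of −1.19 and a limma adjusted p of 0.00579, and Itpr2 was short of the fold threshold at −0.60.

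Car4, the isozyme on the apical membrane of surface colonocytes, was 441, 400, and 355 FPKM in WT mice. Levels in Gm31629-/- mice were 1335, 348, and 2050 FPKM. Mice 1 and 3 were well above every WT mouse, while mouse 2 lay just under the lowest of them. The means were 1244 ± 855 and 399 ± 43.2 FPKM (SD, n = 3 each). On the log2 scale the fold change was 1.31 (95% interval −0.09 to 2.71, limma adjusted p = 0.114), so the difference was within the spread between mice. Without Gm31629-/- mouse 2 it was 2.06 and Car4 was called higher (limma adjusted p = 0.00128).

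Car9, a membrane isozyme known as a target of the hypoxia-inducible factors, was 38.6, 51.2, and 49.9 FPKM in WT mice and 20.8, 22.2, and 41.5 FPKM in Gm31629-/- mice. Gm31629-/- mouse 3 lay above WT mouse 1, so the groups overlapped. The log2 fold change was −0.76 (95% interval −1.41 to −0.12, limma adjusted p = 0.0578). Without Gm31629-/- mouse 3 it was −1.07 and Car9 was called lower (limma adjusted p = 0.00709). Car9 shares 214 exonic bases with the antisense gene Gm12454, which was 3.26 to 7.29 FPKM, and whether counting used the strand is not given in the sources used here.

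Car12 (ENSMUSG00000032373), a membrane isozyme of absorptive and secretory epithelia, was 20.8, 30.5, and 30.1 FPKM in WT mice. It was 1.82, 1.88, and 1.62 FPKM in Gm31629-/- mice. The 3 Gm31629-/- values were nearly the same and all far below the lowest WT value. The means were 1.77 ± 0.137 and 27.1 ± 5.51 FPKM (SD, n = 3 each), 15.3-fold lower in Gm31629-/- mice. This was a log2 fold change of −3.32 (95% interval −3.76 to −2.89, limma adjusted p = 0.000119). Car12 stayed called lower when any 1 mouse was left out, with a log2 fold change of −3.50 to −3.23. The values rest on 226 to 264 fragments per Gm31629-/- library and 2920 to 4300 per WT library.

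Car14, a membrane isozyme best known from liver and retina, was 0.106, 0.109, and 0.126 FPKM in WT mice and 1.03, 0.0426, and 0.0856 FPKM in Gm31629-/- mice. Its mean was below the filter and it was not tested. The value in Gm31629-/- mouse 1 rests on 48 fragments and every other value on 2 to 6. Car14 shares 445 exonic bases with Aph1a on the opposite strand, a gamma-secretase subunit gene at 42.6 to 83.3 FPKM, so its few fragments are of uncertain origin.

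**Figure D2:**
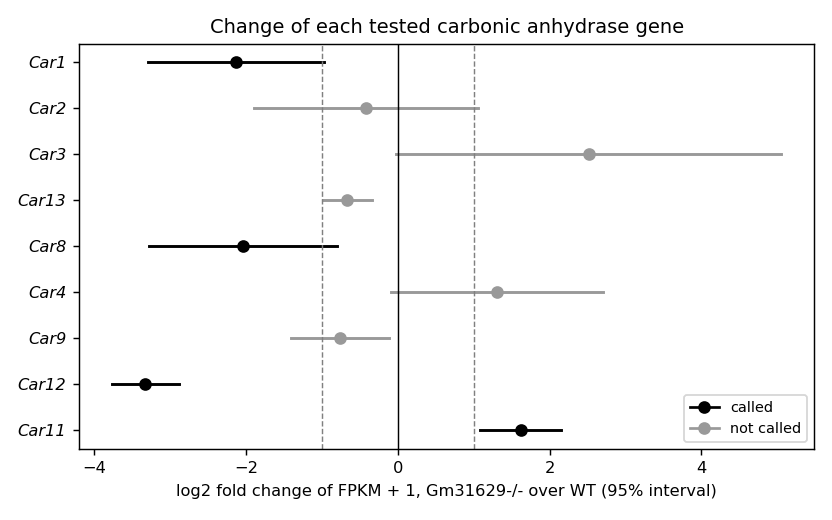
Log2 fold change of FPKM + 1 (Gm31629-/- over WT) with its 95% interval for the 8 tested members and Car11, with dashed lines at the fold threshold of 1 in either direction. Black points are called, at Car1, Car8, and Car12 below 0 and Car11 above 0, and the grey interval of Car3 is the widest.

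The ranking of the isozymes changed with genotype. In WT mice Car1 stood first, followed by Car4 and Car2, whose ranges of 355 to 441 and 285 to 367 FPKM overlapped. Car9 and then Car12 came next and overlapped neither each other nor their neighbors. Car13 (16.6 to 18.5 FPKM) and Car8 (13.3 to 17.0 FPKM) overlapped, and Car3 and Car14 were lowest. In Gm31629-/- mice the ranges of Car1 (509 to 2165 FPKM) and Car4 (348 to 2050 FPKM) overlapped almost completely, and Car12 fell from rank 5 in every WT mouse to rank 7 or 8.

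The balance between isozymes was read as shares of the summed FPKM of the 9 members, which do not depend on how libraries are scaled. Car1 held 82.4%, 87.2%, and 84.9% of the sum in WT mice 1 to 3, but 37.9%, 47.8%, and 45.6% in Gm31629-/- mice 1 to 3. Car4 held 9.35%, 6.39%, and 6.37% in WT mice, but 47.2%, 32.6%, and 43.2% in Gm31629-/- mice. Neither share overlapped between genotypes, and mouse 2, with the lowest Car4 level of the Gm31629-/- mice, was no exception. Shares within a mouse are tied to each other, and a lower Car1 level alone raises the share of Car4. In Gm31629-/- mouse 2, Car4 was 348 FPKM, under the lowest WT value of 355 FPKM, and Car1 was 509 FPKM. With 3 mice against 3 the smallest exact permutation p is 0.1, and both shares reached it (two-sided, 0.225 adjusted over 9 shares). Car1, Car2, and Car4 together held 97.9% to 98.3% in every mouse except Gm31629-/- mouse 2, where they held 87.5% and Car3 held 9.13%.

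The 4 membrane isozymes with an outward catalytic domain held 48.0%, 34.9%, and 44.1% of the sum in Gm31629-/- mice and 10.6%, 7.70%, and 7.81% in WT mice. The means were 42.3% ± 6.74 and 8.71% ± 1.65 (SD, n = 3 each), a difference of 33.6 percentage points (exact permutation p = 0.1, two-sided). Car4 was the most abundant of this class in every mouse, and with Car4 left out the difference was 0.74 points. The summed level of the cytosolic members was 1473, 694, and 2652 FPKM in Gm31629-/- and 4217, 5779, and 5137 FPKM in WT mice, with no overlap (exact permutation p = 0.1, two-sided). The summed level of the membrane members was 1359, 372, and 2093 FPKM against 501, 482, and 435 FPKM, which overlapped (exact permutation p = 0.4, two-sided). For all 9 members it was 2832, 1066, and 4745 FPKM against 4718, 6261, and 5571 FPKM (exact permutation p = 0.2, two-sided). Car1 sets the sign of that difference: without Car1 the log2 difference went from −1.17 to 0.72 (exact permutation p = 0.4, two-sided). With all members it was −0.58 without Gm31629-/- mouse 2 and −0.47 with each library scaled to epithelial markers.

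**Figure D3:**
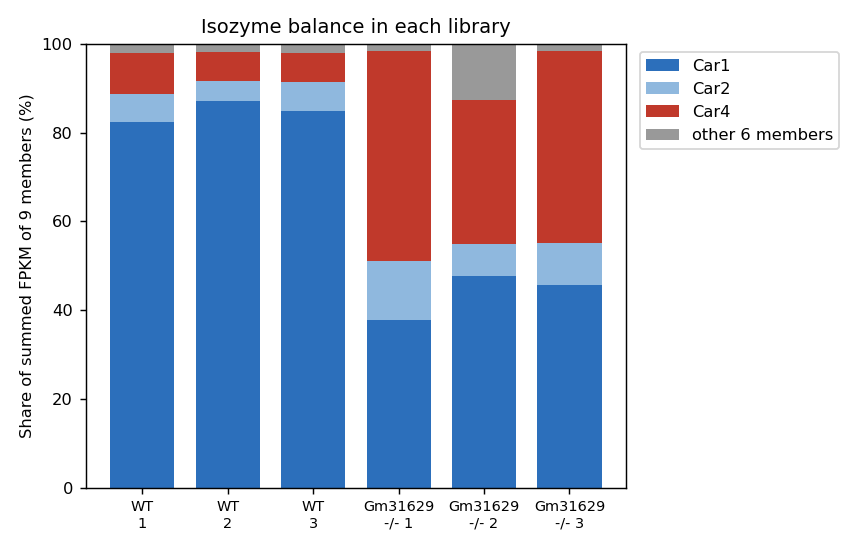
Share of the summed FPKM of the 9 members held by Car1, Car2, Car4, and the other 6 members, 1 stacked bar per mouse, on an axis from 0 to 100%. Car1 fills 82.4% to 87.2% of each WT bar and 37.9% to 47.8% of each Gm31629-/- bar, where Car4 fills 32.6% to 47.2%.

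Ratios between pairs of members, taken within a mouse, showed the shift mouse by mouse. Car1 over Car4 was 8.81, 13.6, and 13.3 in WT mice, but 0.803, 1.46, and 1.06 in Gm31629-/- mice. Car4 over Car2 was 1.48, 1.41, and 0.966 in WT mice, but 3.54, 4.60, and 4.54 in Gm31629-/- mice. The 4.60 of Gm31629-/- mouse 2 was the highest of all, although both of its levels were the lowest of its group. Car1 over Car2 was 12.9 to 19.2 in WT and 2.85 to 6.73 in Gm31629-/- mice, and Car12 over Car9 was 0.538 to 0.604 and 0.0390 to 0.0874. No ratio of these 4 overlapped between genotypes, and each reached the smallest exact permutation p of 0.1 (two-sided). With all 4 at that floor, adjustment over the 4 ratios leaves 0.1 unchanged and corrects for nothing. The pairs were chosen with earlier results known, and other pairs of members were not compared. Among single tested genes, the groups did not overlap for 57.8%.

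Distal colon markers are plotted beside the ratio of Car1 to Car4. Their sum did not overlap between genotypes, and neither did the sums of smooth muscle, goblet cell, macrophage, and endothelial markers. The distal colon sum was 102, 91.1, and 178 FPKM in Gm31629-/- mice 1 to 3 and 31.0, 19.0, and 13.8 FPKM in WT mice 1 to 3. Within genotypes the orders differed: WT mouse 1, with the largest distal sum of its group, had its lowest Car1 over Car4, while Gm31629-/- mouse 3, with the largest sum, had a ratio of 1.06, between the other two. Markers of absorptive colonocytes, the cells that carry Car1, Car2, and Car4 at the surface, summed to 10282 to 21549 FPKM in Gm31629-/- and 17491 to 18770 FPKM in WT mice. Of these 10 markers 3 were called lower, beside 4.64% of all tested genes, and none higher, beside 18.4%. The median log2 fold change of the 10 was −0.67, beside 0.15 over all tested genes. It was below 0 for 7 of them and above 0 for 3, Aqp8 among these. The 3 called lower were Guca2b (log2 fold change −2.65), Cyp2c55 (−3.51), and Prap1 (−2.48). Aqp8, a water channel of surface colonocytes, was 610, 302, and 823 FPKM in Gm31629-/- mice and 307, 239, and 248 FPKM in WT mice, with mouse 2 lowest of its group as for Car4 (log2 fold change 1.02, limma adjusted p = 0.0536). The part of colon position and of cell makeup in the isozyme balance was not tested.

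**Figure D4:**
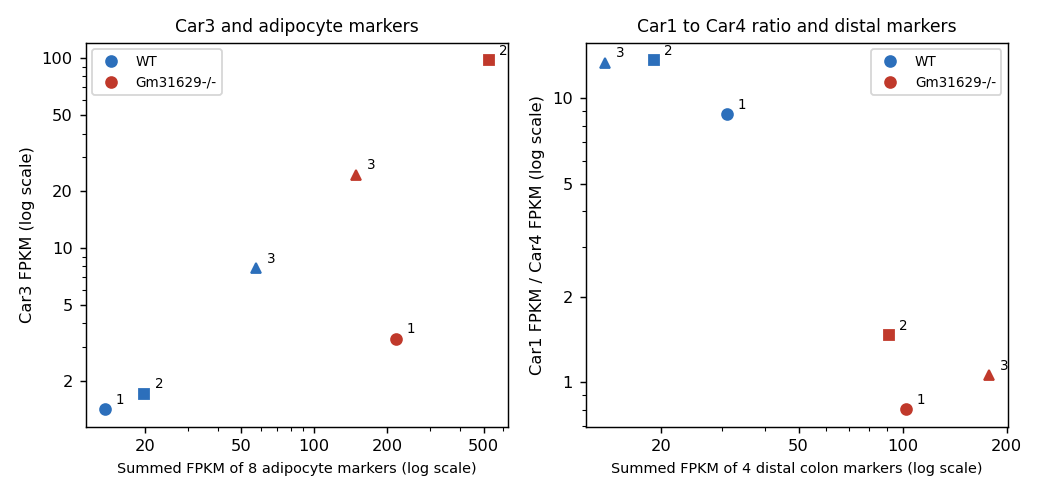
Left, Car3 FPKM against the summed FPKM of the adipocyte markers, and right, Car1 FPKM divided by Car4 FPKM against the summed FPKM of the distal colon markers, 1 numbered point per mouse on log axes. Gm31629-/- mouse 2 is highest on both axes at left, and at right the 3 Gm31629-/- mice sit at 0.803 to 1.46 with distal sums of 91.1 to 178 FPKM.

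The 15 colon epithelium markers did not move together: 3 had a log2 fold change above 0 and 12 below. Epcam (0.01) and Cdh1 (−0.04) were nearly level, while Cdx2 was −3.14. Scaling each library to these 15 markers gives levels relative to their mean log level, and moves the median of all tested genes to 0.69. On that scale Car1, Car8, and Car12 remained called lower, while Car3 (log2 fold change 3.07, limma adjusted p = 0.0388) and Car4 (2.01, limma adjusted p = 0.0132) were called higher. Car2 turned to 0.28, and Car9 (−0.08) and Car13 lay near 0. With libraries scaled by the median ratio, Car9 was called lower as well (−1.02, limma adjusted p = 0.0318).

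Outside the 9 members, 7 further carbonic anhydrase genes are known in the mouse, of which 6 were in the table and 1, Car11, was tested. Car11 (ENSMUSG00000003273) is another member without catalytic activity and is best known from the nervous system. It was 2.82, 3.88, and 2.03 FPKM in Gm31629-/- mice and 0.505, 0.202, and 0.0829 FPKM in WT mice. It was called higher, with a log2 fold change of 1.62 (95% interval 1.08 to 2.15, limma adjusted p = 0.00194), and stayed so when any 1 mouse was left out. Of 10 markers of enteric neurons and glia, 9 were called higher, beside 18.4% of all tested genes. The sum of the 10 was 35.3 to 123 FPKM in Gm31629-/- and 2.80 to 5.38 FPKM in WT mice. The part of neurons and glia in the Car11 values was not tested. Car5b, a mitochondrial isozyme, was 0.342, 1.21, and 0.591 FPKM against 0.0255, 0.0961, and 0.109 FPKM, on 40 to 142 fragments in Gm31629-/- and 3 to 13 in WT libraries. Car6, Car7, Car10, and Car15 were under 0.5 FPKM in every mouse. Car8 and Car11, both without catalytic activity, therefore lay on opposite sides of WT.

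The genes whose profile over the 6 mice was most like that of each tested member were found among 7241 other genes that averaged 5 FPKM or more, by the root mean square difference of log2(FPKM + 1) after centering. Nearest to Car1 were Ugt1a7c (difference 0.198), a glucuronosyltransferase, Cda (0.238), cytidine deaminase, and Slc39a5 (0.246), a zinc transporter. Nearest to Car4 was Adh1 (0.142), an alcohol dehydrogenase, which was 149, 44.2, and 192 FPKM in Gm31629-/- mice and 48.7, 45.7, and 42.3 FPKM in WT mice. Adh1 thus had the same high mice 1 and 3 as Car4, with mouse 2 at the WT level. Nearest to Car12 was Nqo1 (0.125), a quinone reductase, at 3.85, 3.70, and 2.73 FPKM against 29.6, 41.3, and 45.3 FPKM, followed by Isx (0.222), an intestinal homeobox gene, and Amn (0.233), amnionless.

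Nearest to Car3 was Adipoq, at a wider difference of 0.481. Nearest to Car8 were Pcsk5 (0.296), a proprotein convertase, Gm11437 (0.374), and Guca2b (0.417), the peptide uroguanylin. Nearest to Car2 was Ces2c (0.285), a carboxylesterase, which like Car2 was lowest in Gm31629-/- mouse 2 at 40.9 FPKM. Car9 was closest to Akr1c13 (0.121), Tmc4 (0.123), and Hsd17b2 (0.126), and Car13 to Fahd2a, Alg5, and Anxa4, at differences of 0.0516 to 0.0554. No member was among the nearest genes of another member.

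The transporters that use the bicarbonate and protons made by these enzymes held calls in both directions. Of 17 genes for bicarbonate, proton, and lactate transport, 15 were tested. Of the 15, 2 were called higher, beside 18.4% of all tested genes, and 2 lower, beside 4.64%. Both directions together made a share near the 23.1% of all tested genes. The median log2 fold change of the 15 was −0.16 and turned to 0.49 with epithelial scaling. Atp12a, the colonic proton-potassium pump, was 154, 254, and 295 FPKM in Gm31629-/- mice and 3.54, 2.30, and 2.66 FPKM in WT mice, with no overlap. Its log2 fold change was 5.90 (95% interval 5.28 to 6.52, limma adjusted p = 9.09e-05). Slc4a3, an anion exchanger, was also called higher, at 2.60 ± 1.00 against 0.125 ± 0.0697 FPKM (SD, n = 3 each). Slc4a2, the basolateral anion exchanger, was 20.9, 8.69, and 17.7 FPKM in Gm31629-/- and 35.1, 50.3, and 47.2 FPKM in WT mice, a called log2 fold change of −1.50 (limma adjusted p = 0.00897). Cftr, the chloride and bicarbonate channel, was called lower (−1.43, limma adjusted p = 0.0361).

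The apical partners of Car2 and Car4 in sodium chloride absorption did not pass the test. Slc26a3, the apical chloride-bicarbonate exchanger, was 155, 14.7, and 129 FPKM in Gm31629-/- and 49.5, 36.8, and 19.0 FPKM in WT mice, high in mice 1 and 3 and low in mouse 2 as Car4 was (log2 fold change 1.02, 95% interval −0.99 to 3.03). Slc9a3, the apical sodium-proton exchanger, was 314, 23.9, and 57.8 FPKM against 106, 80.5, and 121 FPKM (−0.40, 95% interval −2.33 to 1.52).

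**Figure D5:**
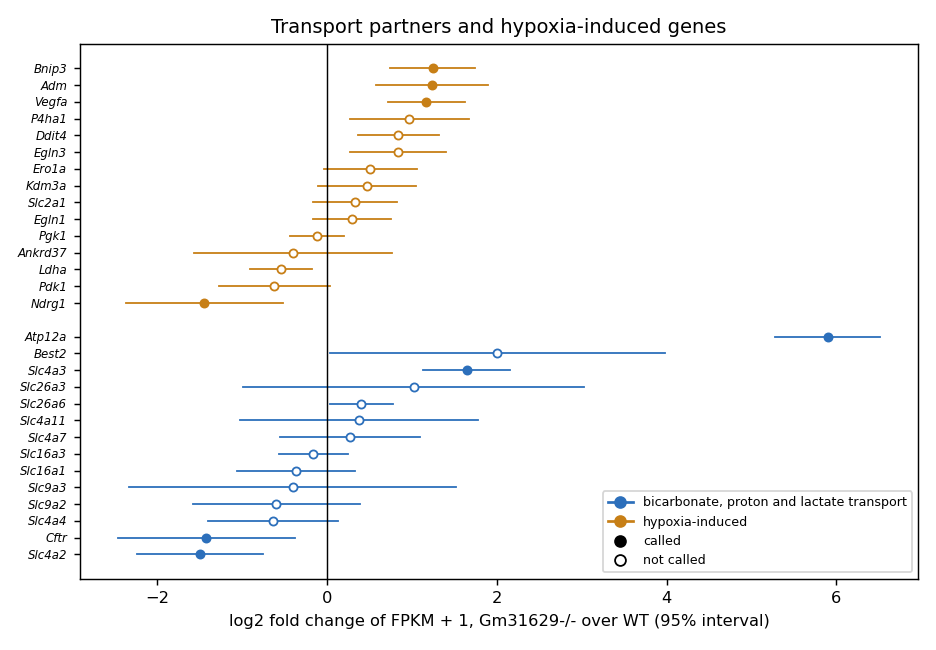
Log2 fold change of FPKM + 1 (Gm31629-/- over WT) with its 95% interval for 14 of the 15 tested transport genes in blue and 15 hypoxia-induced genes in orange. Filled points are called, and Atp12a stands apart at 5.90 while Vegfa, Bnip3, and Adm lie between 1.17 and 1.24 and Ndrg1 at −1.45.

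Car9 and, in some tissues, Car12 are textbook hypoxia targets, so other hypoxia-induced genes were set beside them. Of 15 tested, 3 were called higher, a share near the 18.4% of all tested genes, and 1 lower, with a median log2 fold change of 0.47 that became 1.07 with epithelial scaling. Vegfa, the vascular growth factor, was 46.6, 34.2, and 35.1 FPKM in Gm31629-/- and 15.7, 20.3, and 13.9 FPKM in WT mice (log2 fold change 1.17, limma adjusted p = 0.00363). Bnip3, a mitophagy receptor, and Adm, the peptide adrenomedullin, were called higher at 1.24 each, and Ndrg1 was called lower at −1.45. Slc2a1, the glucose transporter, was 109 ± 15.8 against 87.7 ± 22.3 FPKM (SD, n = 3 each) and did not pass. Vegfa and Adm are made by many cell types, and 7 of 7 endothelial and 8 of 8 macrophage markers were also called higher, and their part in these values was not tested.

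The letters ACGTG, on either strand, are a form of the core that hypoxia-inducible factors bind. They occur in 19.62% of the 32817 RefSeq promoter windows of GRCm38.p6, which run from 250 bases before to 50 bases after a start site. Of the 9 members, 4 had a window in that table (Car4, Car9, Car12, and Car14), and 3 of these windows held the letters. They are shown 5′ to 3′ along the gene, with the match in capitals, because Car9 and Car12 differ here.
Car9: ctatttccgatgCACGTacagcccgtcca
Car4: ggagccgactccCACGTctagccgtccgg
Car14: cacccccctcctCACGTacaccggtttcg
The Car9 stretch is chr4:43506996-43507024, and its match begins at position −18 relative to the RefSeq start. The window of Car12, the member with the largest fold difference, held no ACGTG on either strand. Other forms of the core were not searched. A match is a match of letters only, and binding was not measured.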

How the data were processed

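RNA-Seq was carried out on colon of 3 Gm31629-/- and 3 WT mice, and samples were grouped by the genotype in their labels. The authors deposited 1 table of FPKM values, 1 column per mouse, for 27546 genes. The submitters' processing notes name HISAT2 2.1.0, HTSeq 0.6.0, and GRCm38, and the annotation and strand setting are not given in the sources used here. The methods speak of pooled RNA, but each mouse has its own column, and each library was treated as 1 mouse. If libraries shared RNA, the p-values measure only a technical spread between them.

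Symbols matched 27488 identifiers, and lengths and coordinates came from GENCODE M21 (GRCm38). The number of fragments behind each value was recovered from the value of 1 fragment, and among values up to 20 fragments 96.3% to 97.2% were whole to within 0.1. A value of 0 allows up to 3 fragments, and such limits cover counting error only. Counting noise did not account for the differences between replicates (chi-square per gene of 29.1 to 42.4 for WT pairs, 88.4 to 131 for Gm31629-/- pairs).

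Genes averaging 0.5 FPKM or more were fitted on log2(FPKM + 1) with lmFit and a trended eBayes of limma 3.58.1 (R 4.3.3), a scale that understates the change of low genes. A call needed a Benjamini-Hochberg adjusted p under 0.05 over all 14657 genes and an absolute log2 fold change above 1. Sums, shares, and ratios were compared with exact permutation tests. No set test was run. The study used DEGseq, which needs counts. Scripts were tested on simulated data.

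The members, gene lists, and tests were chosen with earlier results of these data known. Named genes are the members, the other carbonic anhydrase genes, genes of the lists (transport, hypoxia, IP3 receptors, and markers), the 3 nearest profiles of each tested member, and, for checks of libraries or shared sequence, Gm5843, Gm12454, Aph1a, Xist, and the Y-linked genes, chosen after their values were seen. Alternatives were a pseudocount of 0.1, other filters and scalings, no trend, no fold threshold, the replicate number as a block, and leaving out each mouse. Chosen after seeing the data were voom on recovered fragments and the sum without Car1. The level of Gm31629, protein sequences, and promoters of Car1, Car2, Car3, Car8, and Car13 were not analysed here, and 1 transport gene and 1 sequence are not reported here.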

Additional observations from a re-analysis of the deposited data

How the results depend on the processing

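Car1 and Car12 were called lower under every alternative run for them, including each mouse left out. For Car1 the limma adjusted p was as high as 0.0494, without WT mouse 3. The number of genes called, 3384, became 1449 with a mean FPKM of at least 5 (fewer genes tested), 5126 with scaling to epithelial markers, and 6376 with no fold threshold, and was 2810 to 3606 without 1 mouse. Higher calls were 79.9% of all calls, 66.0% with the stricter filter, 64.7% with the median ratio, and 95.7% with epithelial scaling. The number of carbonic anhydrase genes called, 3, became 5 with epithelial scaling, 4 with the median ratio, and 2 to 4 without 1 mouse. With the replicate number as a replicate block 3357 genes and 3 members were called. Mice of the same number did not deviate together (correlations 0.0358, −0.108, and 0.0141), and not every mouse correlated best with its own number. These values showed no pairing by number, but with so few mice they cannot exclude one.

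With epithelial scaling Car9 moved to −0.08 and Car13 to −0.01. Car2 turned from −0.42 to 0.28 with epithelial scaling and to 0.39 without Gm31629-/- mouse 2 (range −0.89 to 0.39 over the mice left out). The log2 difference of the summed members turned from −1.17 to 0.72 without Car1, an alternative chosen after seeing the data, and to 0.65 without the most abundant member of each library. It was −0.47 with epithelial scaling and ranged from −1.66 without Gm31629-/- mouse 3 to −0.58 without Gm31629-/- mouse 2. The extracellular share difference fell from 33.6 to 0.74 points without Car4. The median of the transport list turned from −0.16 to 0.49 and that of the hypoxia list moved from 0.47 to 1.07 with epithelial scaling. Among the shares, the difference for Car2 turned to −20.8 percentage points without Car1, that for Car9 to −3.40 without Car1 and −0.0401 without Gm31629-/- mouse 2, and that for Car13 to −1.16 and −0.00873. Over the mice left out the share differences ranged from −0.0401 to 0.635 points for Car9 and from −0.00873 to 0.361 points for Car13. The causes of these changes were not tested. Depth was even across libraries, and it limits Car14 and the untested family members.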
